A study of Mus musculus with 24 samples.

Results

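The higher dose labels of mogroside V were set against the lowest in normal glucose, in 9 of the 24 libraries of a series on mouse hypothalamic cells. The higher arm held the 6 libraries with dose label 2 or 3 (NG2 and NG3), the lower arm the 3 libraries with dose label 1 (NG1), all picked by their titles. No untreated library entered the comparison. All 3 groups were polyadenylated RNA of adult mouse hypothalamic neuronal cells kept in normal glucose with mogroside V, so medium and compound were common to both arms and the dose label was what differed. Concentrations of 15, 60 and 160 µM are listed for the series without being linked to the dose numbers, and no time of exposure, passage or genotype was given for the cells. Whether the replicates were separate cultures is not labelled, and p-values therefore reflect only how far these libraries differ, possibly for technical reasons. In bulk RNA of this kind, fewer cells of a type and less RNA per cell cannot be told apart.

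Mogroside V is the main sweet triterpene glycoside of monk fruit and activates the sweet taste receptor in taste cells. Hypothalamic neurons sense glucose, insulin and leptin and set feeding and energy use, and their mitochondria supply much of the energy for firing. The mitochondrial genome is read on both strands as long precursor RNAs, from which transfer RNAs are cut out between the ribosomal and protein-coding parts. A comparison among treated libraries asks whether the response depends on dose beyond what the lowest dose label already gives.

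Depth in the 9 libraries ran from 3539760 to 7773074 counts in genes, with a median of 3895991 and the highest in NG2 replicate 1. NG3 replicate 3 stood apart. It lay at 51.7 on the first principal component (26.7% of the variance) while the other 8 lay between -11.0 and -3.02, and it had the fewest genes detected (16535), the smallest share of reads outside genes (14.4%) and the smallest mitochondrial share (5.43%). Counts of calls below are therefore also given without it, as are values of a number of single genes. The labelled cell type had a thin set of its markers. Of 18 neuronal markers 7 had enough counts to be tested. Tubb3, Map2 and Stmn2 had 58.5 to 72.9, 44.8 to 70.3 and 13.7 to 22.4 CPM (counts scaled by library size and TMM factors) over the 9 libraries. Slc32a1, Gad1 and Elavl4 were at 0 in all 9 libraries. The summed neuronal level was 148 to 172 CPM in NG1 and 136 to 164 in NG2 and NG3, beside 6980 to 7318 and 5577 to 7914 CPM for 11 markers of fibroblasts and pericytes. The lowest of these last values, 5577, was in NG3 replicate 3. Most of the fibroblast and pericyte sum was Col1a2 (1430 to 3774 CPM), Acta2 (1396 to 1794) and Col1a1 (993 to 1455). Other members were low, with at most 9.68 CPM for Dcn, 1.71 for Rgs5, 0.539 for Fap and 0.472 for Lum.

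One gene was called. mt-Tp, the mitochondrial transfer RNA for proline, fell in both higher dose groups, and was 1.83-fold lower in the pooled arm than in NG1. It stood at 437, 428 and 381 CPM in NG1, at 238, 213 and 262 in NG2 and at 243, 179 and 230 in NG3. All 6 higher-dose libraries were below all 3 NG1 libraries, and NG2 and NG3 overlapped with each other. The underlying reads numbered 1504 to 1622 in NG1 and 761 to 1885 in the 6 others, the 1885 being in the deepest library.

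The sequence of mt-Tp is shown because it is the transcript that carries the difference. It is the GENCODE M21 transcript (build GRCm38, minus strand), 5′ to 3′, with the anticodon in capitals, found as the middle of a 7-base loop closed by a stem of 6 pairs.
mt-Tp: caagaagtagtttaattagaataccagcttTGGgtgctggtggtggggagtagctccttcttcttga
The transcript has 67 bases, and its anticodon TGG is the one that pairs with proline codons. Libraries made from polyadenylated RNA hold mature transfer RNAs poorly, and counts per gene do not tell a mature molecule from a precursor or a read of the opposite strand. Whether the counting used strand is not given in the labels.

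The log2 difference of mt-Tp between the arms was -0.87 ± 0.11 (SE, 95% interval -1.09 to -0.65), with an adjusted p of 0.000175 by edgeR's quasi-likelihood test with Benjamini-Hochberg adjustment. Leaving out NG3 replicate 3 gave -0.87 ± 0.10 with an adjusted p of 1.05e-06. The decrease was also seen within mitochondrial reads: mt-Tp took 0.512 to 0.568% of them in NG1 and 0.238 to 0.443% in NG2 and NG3. The untreated normal-glucose libraries, which were not part of the test, spanned 280 to 482 CPM (380 ± 101, SD, n = 3), so they enclosed NG1 and lay above all of NG2 and NG3. Leaving out any of the 9 libraries kept mt-Tp called, but its spread was larger in several other groups, with an SD of 101 CPM in the untreated normal-glucose libraries. When all distinct libraries of the series shared 1 estimate of the spread, the SE became 0.23 and the adjusted p 0.999.

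**Figure D1:**
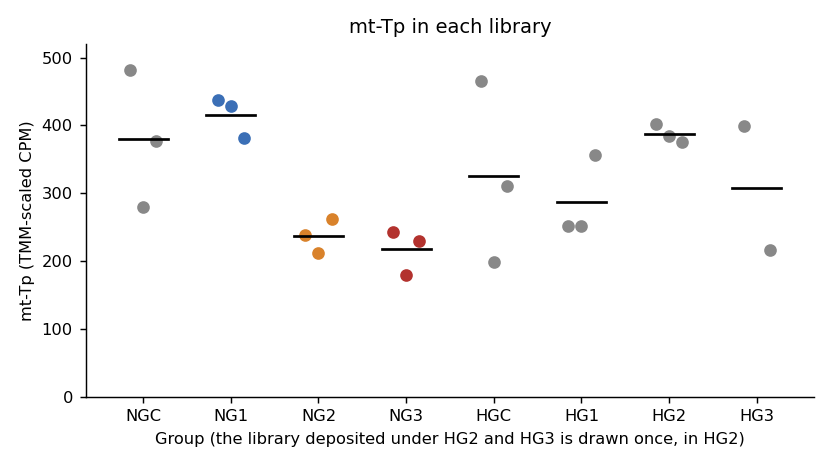
Level of mt-Tp in TMM-scaled CPM (vertical axis, from 0) in each library of the 8 groups (horizontal axis); points are libraries and bars are group means. The NG2 and NG3 points lie between 179 and 262 CPM, below the 381 to 437 of NG1, whereas groups outside the comparison spread from 199 to 482.

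No other gene passed. Of 12129 genes tested, 0 were called higher and 1 lower (0.00824%) at an adjusted p under 0.05, and 360 (2.97%) had an unadjusted p under 0.05, 186 higher (1.53%) and 174 lower (1.43%). DESeq2 called the same 1 gene, with 359 at an unadjusted p under 0.05. The second smallest adjusted p in edgeR was 0.9997. With NG3 replicate 3 left out, 1 of 12067 genes was called (0.00829%), 503 (4.17%) had an unadjusted p under 0.05, and the second smallest adjusted p was 0.760. The median absolute log2 difference over all genes was 0.124 beside a median SE of 0.193. With and without NG3 replicate 3, the share of genes at an unadjusted p under 0.05 was below what evenly spread p-values would give. A p that misses the threshold does not show that the arms were alike.

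**Figure D2:**
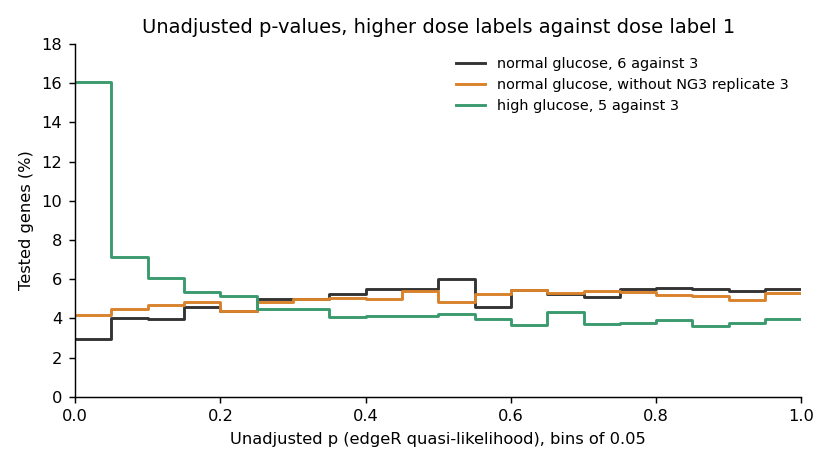
Share of tested genes (vertical axis, %) in each bin of unadjusted p (horizontal axis, bins of 0.05) for the higher dose labels against dose label 1. In normal glucose 2.97% of genes lie in the lowest bin with all 9 libraries and 4.17% without NG3 replicate 3, and in high glucose 16.1%.

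The other mitochondrial genes were the nearest relatives of the called one. Of 37 genes of the mitochondrial genome 18 had enough counts to be tested, and 14 of these had negative differences and 4 positive ones, with a median of -0.32 beside -0.00021 over all tested genes. Apart from mt-Tp none passed. The mitochondrial share of gene counts was 7.32 to 7.77% in NG1, 6.46 to 7.48% in 5 of the higher-dose libraries and 5.43% in NG3 replicate 3. Its part in these signs was not tested.

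By role, all 8 tested transfer RNAs had negative differences in the pooled comparison, with a median of -0.48 (7 of 7, and -0.43, without NG3 replicate 3). In NG3 alone against NG1, mt-Tq and mt-Te lay slightly above 0, at 0.01 and 0.04, and the others were negative. In high glucose the signs were positive, as given below. mt-Tc, the transfer RNA for cysteine, stood at 33.1, 19.4 and 34.3 CPM in NG1, at 20.2, 12.6 and 26.0 in NG2 and at 26.7, 16.5 and 14.9 in NG3. The arms overlapped, and its log2 difference of -0.57 ± 0.23 did not pass. mt-Tn, mt-Ta, mt-Tl1, mt-Te, mt-Tq and mt-Tm, the transfer RNAs for asparagine, alanine, leucine, glutamate, glutamine and methionine, had log2 differences of -0.97 ± 0.57, -0.63 ± 0.60, -0.39 ± 0.50, -0.38 ± 0.56, -0.21 ± 0.28 and -0.20 ± 0.31. Each of these 6 intervals included 0, and mt-Ta was too low to be tested without NG3 replicate 3. Both ribosomal RNAs had negative differences, mt-Rnr1 of -0.23 ± 0.32 and mt-Rnr2 of -0.26 ± 0.22. They were reduced to -0.06 ± 0.09 and -0.14 ± 0.09 without NG3 replicate 3. mt-Rnr1 had 2209 CPM in that library and 5277 to 6722 in the other 5 of the higher arm.

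Among the 8 tested protein-coding genes of the mitochondrial genome, 4 had positive and 4 negative differences, with a median of -0.09 (2 and 6 without NG3 replicate 3). mt-Nd2, a subunit of respiratory complex I, stood at 7723, 9585 and 8198 CPM in NG1, at 7166, 7039 and 6666 in NG2 and at 5206, 6167 and 2429 in NG3. The arms did not overlap, and NG3 replicate 3 was the lowest. Its log2 difference was -0.56 ± 0.31 (unadjusted p = 0.115) with all libraries and -0.40 ± 0.09 (unadjusted p = 0.000127, edgeR adjusted p = 0.760) without that library. The complex I subunits mt-Nd5 and mt-Nd6 had -0.44 ± 0.17 (-0.36 without NG3 replicate 3) and -0.38 ± 0.13, and mt-Co1, a catalytic subunit of cytochrome c oxidase, -0.20 ± 0.11. mt-Nd1, of complex I, and mt-Cytb, the cytochrome b of complex III, lay at 0.01 ± 0.09 and 0.01 ± 0.10. Their 95% intervals ran from -0.17 to 0.20 and from -0.18 to 0.21, and both values were slightly negative without NG3 replicate 3. mt-Nd3 had the largest positive value, 0.99 ± 0.48, at 9.41 to 33.6 CPM in NG1 and 18.9 to 71.2 CPM in the higher arm. It ranged from 0.62 without NG1 replicate 3 to 1.46 without NG1 replicate 2, and was 1.14 ± 0.42 without NG3 replicate 3. mt-Nd4l, mt-Co2, mt-Co3 and mt-Atp8 were at 0 in all 9 libraries, and reads aligned to several places were kept out of the gene counts.

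Grouped by strand in the same annotation, a split made after the values were seen, the tested genes of the minus strand were mt-Nd6 and the transfer RNA genes mt-Tp, mt-Tn, mt-Ta, mt-Tc, mt-Te and mt-Tq. All 7 had negative differences, with a median of -0.57. Of the 11 tested genes of the plus strand, 7 were negative and 4 positive, with a median of -0.20. In high glucose 1 of 6 tested genes of the minus strand was negative, with a median of 0.50, and 7 of 11 of the plus strand, with a median of -0.07. The difference between the strands was not tested.

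**Figure D3:**
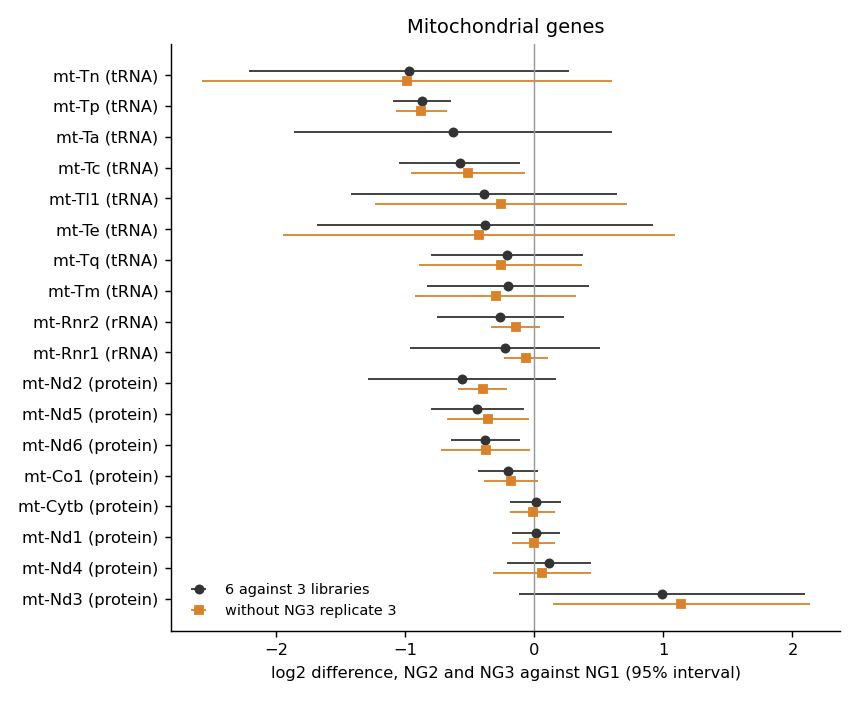
Log2 difference of NG2 and NG3 against NG1 (horizontal axis) with 95% intervals for the 18 tested mitochondrial genes (vertical axis, with their class), for all 9 libraries (black circles) and without NG3 replicate 3 (orange squares; mt-Ta was not tested there). The interval of mt-Tp, -1.09 to -0.65, is narrow and lies apart from 0, and the 7 other transfer RNAs also have negative values, with wider intervals.

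The next lowest p-values, among genes whose mean reached 5 CPM in either arm, belonged to 9 genes, none of which passed (edgeR adjusted p = 0.9997 for each). Ccdc9b stood at 51.7, 54.4 and 53.8 CPM in NG1, at 40.3, 40.5 and 40.5 in NG2 and at 30.9, 37.5 and 32.8 in NG3, a log2 difference of -0.52 ± 0.14. The arms did not overlap, and neither did the 3 dose groups. Ttll1, a subunit of an enzyme that adds glutamate chains to tubulin, had 11.7 to 17.9 CPM in NG1 and 4.17 to 10.1 in the higher arm (-1.02 ± 0.29). Nop9, an RNA-binding protein of ribosome assembly, had 36.2 to 42.0 CPM in NG1 and 22.4 to 32.0 in the higher arm (-0.49 ± 0.16). For both genes all 6 higher-dose libraries were below NG1. Gm48015 and Gm6563, predicted genes whose reads may be shared with copies elsewhere and are uncertain, had -1.11 ± 0.32 and -1.14 ± 0.34 without overlap. Churc1, a zinc-finger protein, had -0.85 ± 0.25 and overlapped, since NG3 replicate 2 stood at 17.2 CPM beside 16.4 to 19.4 in NG1. 9430038I01Rik had -0.97 ± 0.31 and also overlapped.

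Higher values were fewer among these. Igtp, an interferon-induced GTPase of cell defence, stood at 3.50, 3.70 and 4.82 CPM in NG1, at 7.95, 5.67 and 6.43 in NG2 and at 8.55, 9.43 and 16.9 in NG3. The arms did not overlap, and the log2 difference was 1.18 ± 0.36, or 0.92 ± 0.34 without NG3 replicate 3, its highest library. Of 15 tested genes of the interferon response, 7 were positive and 8 negative, with a median of -0.0045, and 8 were positive without NG3 replicate 3. ENSMUSG00000121092, which has no symbol in the table used here, had 0.57 ± 0.18 with overlap.

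Over all genes, 99 of 12129 (0.816%) had all 6 higher-dose libraries above NG1, and 137 (1.13%) had all 6 below. Only 84 ways exist to split the libraries into 6 and 3 (56 without NG3 replicate 3), so random order also yields such genes. Lack of overlap alone therefore does not set a gene apart. The shares were 1.58 and 1.67% without NG3 replicate 3. That fit added further genes with low p-values that did not pass, with differences of -0.58 ± 0.16 for Tmem110, a regulator of store-operated calcium entry, -0.34 ± 0.10 for Nfatc3, a calcium-responsive transcription factor, 0.45 ± 0.12 for Cdc42ep3, an effector of the GTPase Cdc42, 0.57 ± 0.16 for Tmed7, a cargo receptor between ER and Golgi, and -0.46 ± 0.13 for the predicted gene Gm8649. Nfatc3 stood at 231, 248 and 257 CPM in NG1, at 192, 175 and 202 in NG2 and at 171, 230 and 62.0 in NG3, the 62.0 being NG3 replicate 3, and its difference with all libraries was -0.51 ± 0.34. Gm44265, a predicted gene below 5 CPM in the mean of both arms, had the second lowest p of all tested genes (unadjusted p = 0.000329, edgeR adjusted p = 0.9997). It had 0, 2 and 2 reads in NG1 and 10 to 22 in the 6 others. It passed the low-count filter only through the higher arm, and was singled out after its values were seen.

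**Figure D4:**
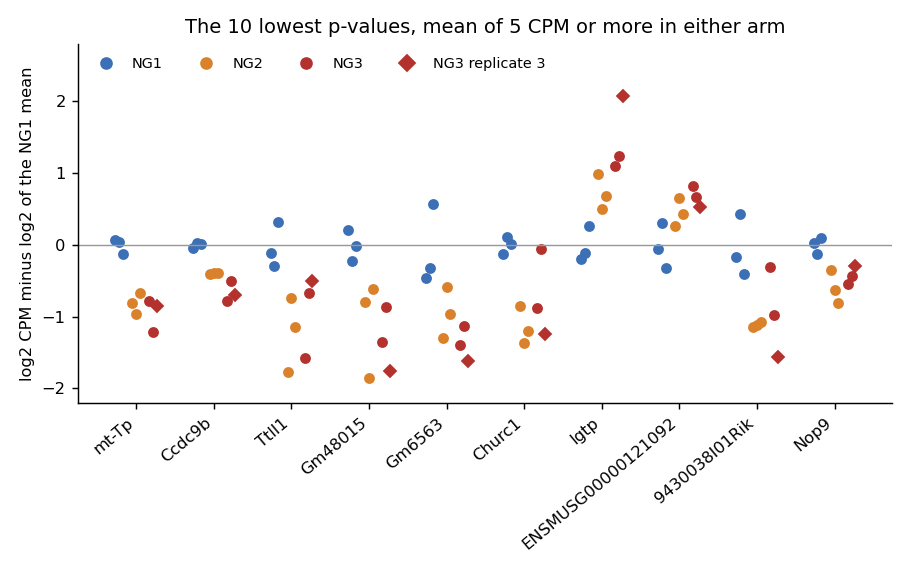
Log2 CPM of each of the 9 libraries relative to the log2 of the NG1 mean (vertical axis) for the 10 genes with the lowest p-values among those whose mean reached 5 CPM in either arm (horizontal axis), coloured by dose group, with NG3 replicate 3 as a diamond. The mt-Tp points of each group lie close together, while Churc1 and 9430038I01Rik overlap between the arms and the Igtp value of NG3 replicate 3 (16.9 CPM) is the highest point.

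Across 42 lists of pathways, complexes and cell types, 613 distinct genes were tested. Of these, 0 were called by edgeR and 19 had an unadjusted p under 0.05 (10 higher and 9 lower), a share of 3.10% beside 2.97% of all tested genes. DESeq2 called no gene of these lists either. The list medians lay between -0.12 and 0.11. The members named next are among those with an unadjusted p under 0.05, and none passed. Evenly spread p-values would give a larger share than 3.10%, so such a p alone does not set a member apart.

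Among genes of energy and nutrient sensing, Sesn1, a stress-induced inhibitor of mTORC1 that is also a p53 target, stood at 9.70, 12.2 and 12.8 CPM in NG1, at 17.8, 21.4 and 16.5 in NG2 and at 18.1, 17.9 and 15.4 in NG3. The arms did not overlap, and the log2 difference was 0.62 ± 0.21 (unadjusted p = 0.00669). In the list of AMPK and energy sensing, 12 of 16 genes were positive (median 0.04), and in the p53 list 10 of 17 (median 0.06). Pdk1, a kinase that shuts pyruvate out of the citric acid cycle and a hypoxia target, had 4.82 to 5.39 CPM in NG1 and 5.66 to 11.7 in the higher arm (0.77 ± 0.33). Its list, the hypoxia response, had 10 of 15 positive members and a median of 0.03. Igfbp2, which binds insulin-like growth factors, had 0.52 ± 0.23, with overlapping arms.

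Among genes of the ER, Edem1, which marks misfolded glycoproteins for degradation, stood at 28.8, 29.0 and 29.9 CPM in NG1 and between 33.8 and 51.3 in the 6 others (0.48 ± 0.16). Manf, a secreted ER stress protein, had 174 to 182 CPM in NG1 and 175 to 254 in the higher arm (0.28 ± 0.11). Of the 21 tested genes of ER chaperones and the unfolded protein response 15 were positive, with a median of 0.06. The integrated stress response, a neighbouring pathway, had 11 positive and 10 negative members and a median of 0.03.

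Lipid genes had mixed signs. Mvk, mevalonate kinase of cholesterol synthesis, had 52.6 to 57.2 CPM in NG1 and 36.3 to 51.2 in the higher arm without overlap (-0.36 ± 0.14), yet 14 of 23 genes of its list were positive and the list median was 0.06 (12 and 0.03 without NG3 replicate 3). Fabp5, a fatty acid carrier, had -0.41 ± 0.14 with overlapping arms, and 10 of 16 genes of lipid droplets and fatty acid oxidation were positive with a median of 0.06, which turned to -0.02 without NG3 replicate 3.

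Of 24 genes of ribosome biogenesis 17 were negative, with a median of -0.12 (18 and -0.11 without NG3 replicate 3). Nop56 and Fbl, core proteins of the particles that methylate ribosomal RNA, had -0.32 ± 0.14 and -0.40 ± 0.19. Of 28 cytosolic ribosomal proteins 18 were positive with a median of 0.02, but 16 were negative with a median of -0.02 without NG3 replicate 3. Rplp0, an acidic protein of the large subunit, had 0.31 ± 0.11, and its highest value, 1914 CPM, was in NG3 replicate 3, without which the difference was 0.23 ± 0.09.

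Egr2, an immediate early transcription factor, stood at 6.20, 3.42 and 5.31 CPM in NG1 and at 6.44 to 14.9 in the higher arm without overlap (0.98 ± 0.34), and 17 of the 25 immediate early genes were positive (median 0.07). Per2, a repressor of the circadian clock, had 0.60 ± 0.28. Fn1, the matrix protein fibronectin, had 794 to 878 CPM in NG1 and 895 to 1007 in the higher arm, a small difference of 0.21 ± 0.09 without overlap. Il6, a cytokine, had -1.02 ± 0.45 at 3.62 to 7.55 CPM in NG1 and 1.03 to 4.75 in the higher arm. Neat1, a noncoding RNA retained in the nucleus, had -0.24 ± 0.11. Genes of mitosis (11 of 24 positive, median -0.01, and 15 of 24 with 0.02 without NG3 replicate 3) and DNA replication (16 of 28, median 0.01) lay close to 0.

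A fixed set of genes of glucose handling, insulin signalling and sweet taste was described whatever its p, and none passed. Txnip, which carbohydrate-response factors induce in many cells, stood at 136, 168 and 123 CPM in NG1, at 200, 122 and 118 in NG2 and at 132, 176 and 186 in NG3. The groups overlapped, and the log2 difference was 0.14 ± 0.17 (95% interval -0.22 to 0.49). Slc2a1, the glucose transporter GLUT1, had 0.14 ± 0.16 (-0.20 to 0.48) and Hk2, a hexokinase, -0.15 ± 0.15 (-0.46 to 0.17). The interval of Arrdc4, a relative of Txnip, was wider, from -0.63 to 0.52 around -0.06.

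For insulin signalling, the receptor gene Insr had the largest size of these values, -0.38 ± 0.22 (-0.84 to 0.08), at 16.4 to 18.5 CPM in NG1 and 8.83 to 17.9 in the higher arm, lowest in NG3 replicate 3, without which it had -0.29 ± 0.21. Igf1r, the IGF1 receptor, had -0.07 ± 0.13 (-0.33 to 0.19), and the adaptors Irs1 and Irs2 had -0.06 ± 0.14 and -0.03 ± 0.20. Prkaa1 and Prkaa2, the catalytic subunits of AMPK, had 0.03 ± 0.14 and 0.01 ± 0.54, the latter at 0.757 to 4.55 CPM. Tmtc1, which adds mannose to proteins in the ER, had 0.35 ± 0.18 (-0.01 to 0.71).

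Receptors through which a sweetener or a feeding signal could act were near or at the limit of detection. The sweet taste receptor genes Tas1r2 and Tas1r3 had 0 to 2 and 0 to 6 reads in a library, the leptin receptor Lepr 0 to 2 and the neuropeptide Y receptor Npy1r 3 to 17, so none was tested. Of the 19 feeding neuropeptides and receptors listed, 0 had enough counts, and of 7 genes of sweet taste signalling only Itpr3, a calcium release channel, was tested (-0.03 ± 0.13).

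Taken apart, NG2 and NG3 share the NG1 libraries, so their values are given side by side. Against NG1, mt-Tp fell by 0.81 ± 0.13 on the log2 scale in NG2 (edgeR adjusted p = 0.0203) and by 0.93 ± 0.13 in NG3 (adjusted p = 0.00204). In each case it was the 1 gene called of 12129 (0.00824%). At an unadjusted p under 0.05 there were 265 genes in NG2 (2.18%) and 606 in NG3 (5%). The NG2 call was lost without any 1 of the 6 libraries of NG1 and NG2, and the NG3 call without NG1 replicate 1 or NG1 replicate 2. Without NG3 replicate 2, 4 genes were called in NG3. Without NG3 replicate 3, NG3 had 1 call of 12527 (0.00798%), with 5.88% of genes at an unadjusted p under 0.05, and mt-Tp at -0.98 ± 0.13 with an edgeR adjusted p of 0.000216. There mt-Nd2 (-0.58 ± 0.11), Ppp4c, a catalytic subunit of a protein phosphatase (1.42 ± 0.28), and Eef1a1, an elongation factor of translation (0.79 ± 0.15), had edgeR adjusted p-values of 0.0582. With NG3 replicate 3 included, their values were -0.89 ± 0.30, 1.16 ± 0.30 and 0.49 ± 0.33, and Eef1a1 stood at 125 CPM in that library, below the 154 to 194 CPM of NG1.

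NG3 against NG2 asked whether the 2 pooled labels differed. With edgeR 0 of 12129 genes were called, with 551 (4.54%) at an unadjusted p under 0.05, and DESeq2 called 0 with 498. mt-Tp differed by -0.13 ± 0.13 (95% interval -0.39 to 0.14). Low p-values, in genes picked after they were seen, were those of Phgdh, the first enzyme of serine synthesis (0.70 ± 0.15), Sspn, of the dystrophin complex (-0.67 ± 0.16), and Irf2, an interferon regulatory factor (-0.55 ± 0.15). Phgdh lay at -0.48 ± 0.15 in NG2 and at 0.22 ± 0.15 in NG3 against NG1. For Sspn and Irf2 the values were 0.37 ± 0.16 and 0.15 ± 0.15 in NG2, and -0.30 ± 0.16 and -0.40 ± 0.15 in NG3. Each of these 3 genes thus had opposite signs in the 2 dose groups, and its pooled difference was small, between -0.09 and 0.08.

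The same contrast in high glucose (HG2 and HG3 against HG1) shares no library with the normal-glucose one. HG2 replicate 3 and HG3 replicate 2 were identical files and counted once, which leaves 5 against 3. In high glucose 206 genes rose (1.73%) and 214 fell (1.79%) of 11939, 3.52% in all (edgeR adjusted p under 0.05), and DESeq2 called 437. The count moved with the library left out. It was 190 without HG1 replicate 1, 72 without HG1 replicate 2 and 670 without HG1 replicate 3. Without HG2 replicate 2 it was 262, and the cause of these changes was not tested.

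In normal glucose 0 of these genes passed. Of the 205 that rose in high glucose and were tested in normal glucose, 140 (68.3%) had a positive difference there, but the median was 0.06 beside 0.56 in high glucose. Of the 213 that fell, 129 (60.6%) had a negative difference, with a median of -0.04 beside -0.48. Without NG3 replicate 3 the same signs were held by 117 and 141 genes. At an unadjusted p under 0.05 there were 5 and 6. Over all tested genes, 50.1% had a negative difference in normal glucose. The high-glucose medians are of genes picked because they passed there, which tends to raise their size, so the medians of the media are not on a like footing. Snrpd3, a core protein of spliceosome particles, had 136 ± 13.2 CPM in HG1 and 248 ± 39.2 in HG2 and HG3 (SD, n = 3 and 5), and 195 ± 18.2 in NG1 and 193 ± 46.4 in NG2 and NG3 (n = 3 and 6). Its difference was 0.86 ± 0.10 in high and -0.02 ± 0.16 in normal glucose. For Lmnb1, the nuclear lamin B1, these were 0.61 ± 0.09 and 0.07 ± 0.11. Ppp1ca, a catalytic subunit of protein phosphatase 1, had -0.82 ± 0.11 in high and -0.09 ± 0.14 in normal glucose. For Psap, a precursor of lysosomal saposins, the values were -0.57 ± 0.08 and -0.13 ± 0.12. The differences between the media did not pass for Snrpd3, Lmnb1, Ppp1ca and Psap (edgeR interaction, adjusted p = 0.287, 0.224, 0.161 and 0.460). Among the genes called in high glucose, that interaction was called for 0 that rose and 1 that fell. Among the genes named for normal glucose, Nop9 and Fabp5 also fell in high glucose, by 0.57 and 0.39 on the log2 scale (edgeR adjusted p = 0.0343 and 0.00982), and Nop56 rose there by 0.40 (adjusted p = 0.0236; interaction adjusted p = 0.139). Of 28 cytosolic ribosomal proteins 10 fell and 1 rose in high glucose, while 0 were called in normal glucose by edgeR or DESeq2.

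**Figure D5:**
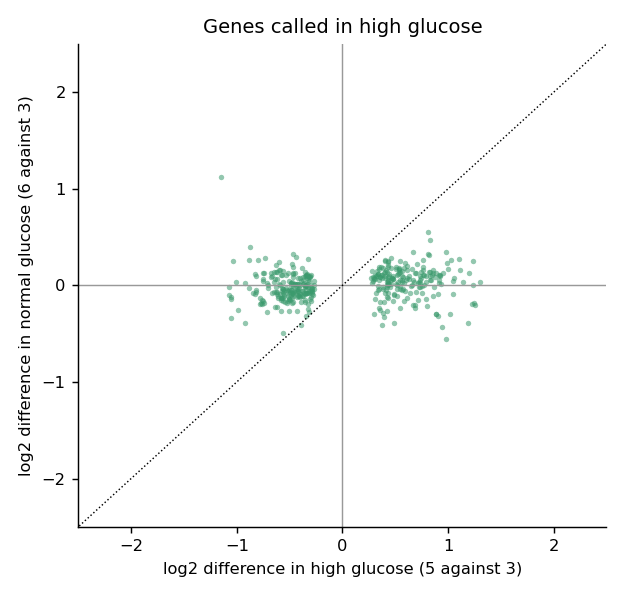
Log2 difference of the higher dose labels against dose label 1 in normal glucose (vertical axis) and in high glucose (horizontal axis) for the genes called in high glucose and tested in both; the dotted line marks equal values. The points form 2 clouds around 0 on the vertical axis, with medians of 0.06 for the genes that rose and -0.04 for those that fell, and 1 point, the predicted gene Gm7691, lies at 1.12 in normal and -1.15 in high glucose.

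mt-Tp itself had no call in high glucose. It stood at 286 ± 60.6 CPM in HG1 (SD, n = 3), with a difference of 0.31 ± 0.24 (adjusted p = 0.615). The difference between the media was -1.17 ± 0.24 and did not pass (edgeR interaction, adjusted p = 0.134, and 0.186 without NG3 replicate 3). Of its neighbours, mt-Tq and mt-Tm rose in high glucose, by 0.80 ± 0.23 and 1.26 ± 0.36 on the log2 scale (adjusted p = 0.0341 and 0.0354), where they had -0.21 and -0.20 in normal glucose. mt-Cytb fell there by 0.41 ± 0.09 (adjusted p = 0.00352). The interactions of the 3 genes did not pass (edgeR adjusted p = 0.549, 0.422 and 0.388). The remaining tested transfer RNAs were positive in high glucose as well, and none passed. They were mt-Tl1 (2.06 ± 0.67), mt-Tc (1.19 ± 0.33), mt-Tn (0.52 ± 0.44) and mt-Te (0.48 ± 0.40).

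The interaction of dose step and medium called 1 of 12720 genes (0.00786%), with 989 at an unadjusted p under 0.05 (7.78%). This was Smo, the membrane protein that transmits Hedgehog signals. It stood at 69.3, 78.0 and 60.5 CPM in NG1, at 73.1, 92.8 and 80.8 in NG2 and at 75.7, 84.4 and 91.8 in NG3. In high glucose it stood at 105, 151 and 82.3 in HG1 and at 51.8 to 76.7 in the 5 others. The arms overlapped in normal glucose and were apart in high glucose. The difference was 0.26 ± 0.13 in normal glucose (adjusted p = 0.9997) and -0.88 ± 0.15 in high glucose (adjusted p = 0.00160), and the interaction was 1.15 ± 0.20 (adjusted p = 0.0235). The call was lost without any 1 of NG1 replicate 1, NG1 replicate 3, NG2 replicate 2, NG3 replicate 2, HG1 replicate 1, HG1 replicate 2, HG2 replicate 1, HG2 replicate 2 or HG3 replicate 1, and with both identical files left out. Without NG3 replicate 3, 3 of 12662 genes were called (0.0237%, with 9.28% at an unadjusted p under 0.05): Smo on the positive side (0.0079%), and on the negative side (0.0158%) Ociad1, an endosomal and mitochondrial protein, and Ppp1ccb, whose near-identical relative Ppp1cc makes its counts uncertain. The last 2 had interactions of -0.80 and -1.51 (adjusted p = 0.0442 for each).

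Markers of other cell types gave no call. Mog, Mag, Olig1, Olig2 and Sox10, which define oligodendrocytes, were at 0 in all 9 libraries. Cd68, a lysosomal protein of macrophages, had -1.06 ± 0.44 at 4.31 to 6.27 and 1.52 to 3.61 CPM, and Itgam and Tyrobp, other myeloid markers, were at 0. Of the 4 tested genes of that list 2 were positive and 2 negative, with a median of 0.01 (1 and 3 without NG3 replicate 3), and Tmem119, a microglial membrane protein, had up to 194 CPM. The summed level of 14 markers of astrocytes and tanycytes was 3442 to 3870 CPM in NG1 and 3400 to 3867 in NG2 and NG3. Most of this sum was Vim, at 3036 to 3538 CPM, followed by Sox9 (158 to 216), Nes (79.7 to 103) and Gja1 (50.9 to 70.1). Gfap had at most 0.504 CPM, and Aqp4 and Crym were at 0 in all 9 libraries. The 10 microglial markers summed to 173 to 201 and 149 to 210 CPM, and the 7 endothelial ones to 49.9 to 56.0 and 39.3 to 58.7, so the arms overlapped in each sum. Most of the microglial sum was Tmem119 (138 to 194 CPM). Nearly all of the endothelial sum was Flt1 (37.8 to 56.7 CPM), and Cdh5 was at 0 in all 9 libraries.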

How the data were processed

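The authors deposited 1 file a library, which lists unnormalized read counts by gene ID as whole numbers. Per the submitters' processing notes, the tools were STAR 2.7.5c, HTSeq 1.99.2, FastQC 0.11.9 and DESeq2 3.16, and the build GRCm39. The annotation at hand is of another build, so no coordinates are given. Of 56941 gene IDs 51948 had a symbol in GENCODE M21. The 5 HTSeq summary lines were dropped; in the 9 libraries, 14.4 to 20.6% of reads lay outside genes, 3.46 to 4.15% were ambiguous and 16.5 to 18.9% were not uniquely aligned.

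Counts were tested with edgeR 4.0.16 in R 4.3.3 (TMM factors, default low-count filter with a minimum count of 10, robust quasi-likelihood F test, Benjamini-Hochberg adjustment over all tested genes, threshold 0.05). After the filter 12129 genes were left, and 44812 IDs were removed. Residual degrees of freedom numbered 7, with a biological coefficient of variation of 0.165. Single doses came from a fit of group means, and the difference between media from an interaction over 17 distinct libraries. DESeq2 1.42.0 and limma 3.58.1 gave alternatives. The code was tested on simulated counts.

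The rule for named genes took up to 10 called genes in each direction whose mean reached 5 CPM in either arm without overlap, then the 10 lowest p-values at that level, up to 3 members of each list and a fixed set. Of the genes it gave, those in the text were narrowed with values in view, and some are not reported here. The members, lists and tests were chosen with earlier results of these data known. Of 738 listed symbols 735 matched an ID.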

Additional observations from a re-analysis of the deposited data

Results flagged for a closer look

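Among the 6 NG2 and NG3 libraries, 59 items were checked for 1 library far from the rest (53 genes and 6 library measures), and 9 stood out, 5 of them through NG3 replicate 3. Chance flags about 1 in 20. NG3 replicate 3 was apart in mt-Rnr1 (2209 CPM), Igtp (16.9), Nfatc3 (62.0) and Igf1r (144), and in the share of reads outside genes (14.4%). NG3 replicate 2 was apart in mt-Nd6 (1107 CPM) and Churc1 (17.2), and NG3 replicate 1 in 9430038I01Rik (9.06 CPM). NG2 replicate 1 was apart in depth, with 7773074 gene counts. mt-Tp was not among the items that stood out.

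Smo differed between the media in the dose step by a test of that difference, with an interaction of 1.15 on the log2 scale (edgeR adjusted p = 0.0235). The call was not stable: it was lost when any of several single libraries, or both identical files, were left out, as given above.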

How the results depend on the processing

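Leaving out each of the 9 libraries in turn gave 1 called gene in the pooled comparison every time, with mt-Tp between -0.93 and -0.81 and adjusted p-values from 1.05e-06 to 0.0180. Without a low-count filter 2 genes were called, and 0 when all distinct libraries of the series shared 1 spread. Without NG3 replicate 3 these counts were 3 and 0. With all libraries sharing the spread, NG2 against NG1 had 0 calls, and NG3 against NG1 had 1, which was not mt-Tp. Without a filter, NG3 against NG1 had 11 calls, NG3 against NG2 had 1 and the interaction 62. Leaving out 1 library gave 0 to 1 calls for NG2 against NG1, 0 to 4 for NG3 against NG1, 0 to 1 for NG3 against NG2, 72 to 670 for high glucose and 0 to 14 for the interaction. DESeq2 called 21 genes for the interaction, both identical files left out gave 0, and leaving out NG3 replicate 3, an alternative chosen after seeing the data, gave 3. In the cases where more genes were called, the cause was not tested.

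Of 53 genes, 45 kept their sign in every setting tried (up to 18). The other 8 lay near 0 and changed sign. Leaving out 1 library gave log2 differences of -0.038 to 0.052 for mt-Nd1, -0.033 to 0.051 for mt-Cytb, -0.26 to 0.091 for Arrdc4, -0.16 to 0.20 for Irs2, -0.31 to 7.5e-05 for Hk2, -0.12 to 0.021 for Igf1r, -0.032 to 0.11 for Prkaa1 and -0.24 to 0.30 for Prkaa2. With limma-voom and sample weights, mt-Nd1 was -0.016 and mt-Cytb -0.0085. Prkaa2 was -0.0014 with DESeq2, -0.075 with group means, -0.078 with all libraries in the fit and -0.013 with the replicate block.

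No pairing by the shared replicate numbers was visible. Over 9 pairs of the same number the correlations of deviations ran from -0.076 to 0.058, and in 3 of the 9 pairs a library correlated best with its own number. With 3 libraries a group, this cannot show that the samples were unpaired. With the replicate number as a block the pooled comparison still had 1 call, the high-glucose one 190 with both identical files left out, and the interaction 0. The median SE was 0.19 in normal glucose and 0.18 in high glucose, where 420 genes were called. Genes such as Lepr, Tas1r2, Tas1r3 and Npy1r had too few counts for the normal-glucose tests. Whether depth or low expression lay behind this was not tested.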
